A study of Homo sapiens with 2 samples.

Results

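Cadherins and catenins are the proteins that join neighbouring epithelial cells at the adherens junction, and 10 of their genes are described here in PC3 cells and in the cabazitaxel-resistant subline PC3CR. The genes were 5 cadherins (CDH1, CDH2, CDH3, CDH4 and CDH11) and 5 catenin genes (CTNNA1, CTNNA2, CTNNB1, CTNND1 and the catenin-like CTNNAL1), chosen by name from the 19775 genes measured. A probe set, the group of short probes on the array that report 1 transcript, was used when the platform annotation gave it exactly 1 gene symbol. By this rule 8 of the 10 genes had probe sets, 19 in all of 41091. No probe set carried the symbol CDH4 alone, and the 4 probe sets of CTNND1, which encodes p120-catenin, were shared with the read-through gene TMX2-CTNND1, so neither gene is given a value.

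PC3 is an established line of human castration-resistant prostate cancer, and no treatment is given for it in the labels. PC3CR was derived from PC3 in rising concentrations of cabazitaxel (CBZ), a taxane that stabilises microtubules. By the labels it was kept in CBZ for 18 months and examined after 3 months without the drug, and whether it is 1 clone is not stated. Total RNA of each line was hybridised to 1 array, 2 arrays in all, and the values are the authors' log2 values after the robust multichip average (RMA). With 1 array per line there is no spread between cultures, no test was made, and every difference is only as precise as a single pair of arrays allows. A difference is PC3CR minus PC3 on the log2 scale, so that 1 is a 2-fold difference, the threshold in the methods. Over all genes 16.6% were past 2-fold, 9.84% higher in PC3CR and 6.72% lower, and the median difference was -0.041. In bulk RNA, fewer cells that express a gene and less RNA per cell cannot be told apart.

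Classical cadherins cross the cell membrane and bind a cadherin of the same kind on the next cell. Inside the cell, beta-catenin (CTNNB1) binds the cadherin tail, alpha-catenin (CTNNA1) links beta-catenin to actin filaments, and p120-catenin holds the cadherin at the surface. Beta-catenin also enters the nucleus, where it works with TCF and LEF factors in Wnt signalling. Carcinomas that lose E-cadherin and gain N-cadherin are said to undergo a cadherin switch, which is much described in prostate cancer.

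CDH2, CDH11 and CDH3 were lower in PC3CR, and the catenin genes CTNNA1 and CTNNB1 were higher. Of the 8 genes measured, 3 were lower in PC3CR by 2-fold or more, 2 were higher by as much and 3 did neither. All 3 lower genes were among the 4 cadherins measured, and both higher genes were among the 4 catenin genes. By probe set, 6 of 19 were lower by that much, 6 were higher by that much and 7 did neither. Over all probe sets with 1 symbol 14.8% passed 2-fold, 5.89% lower and 8.94% higher. All 9 cadherin probe sets were lower in PC3CR, as deposited and after median centring, loess centring or quantile normalization. These 9 came from 4 genes, 4 of them from CDH11, and their differences as deposited lay between -6.37 and -0.49. Over all probe sets with 1 symbol the median was -0.026, so that most of these also lay below 0. Their exact share below 0 was not counted, and a lower value in PC3CR is by itself common.

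**Figure D1:**
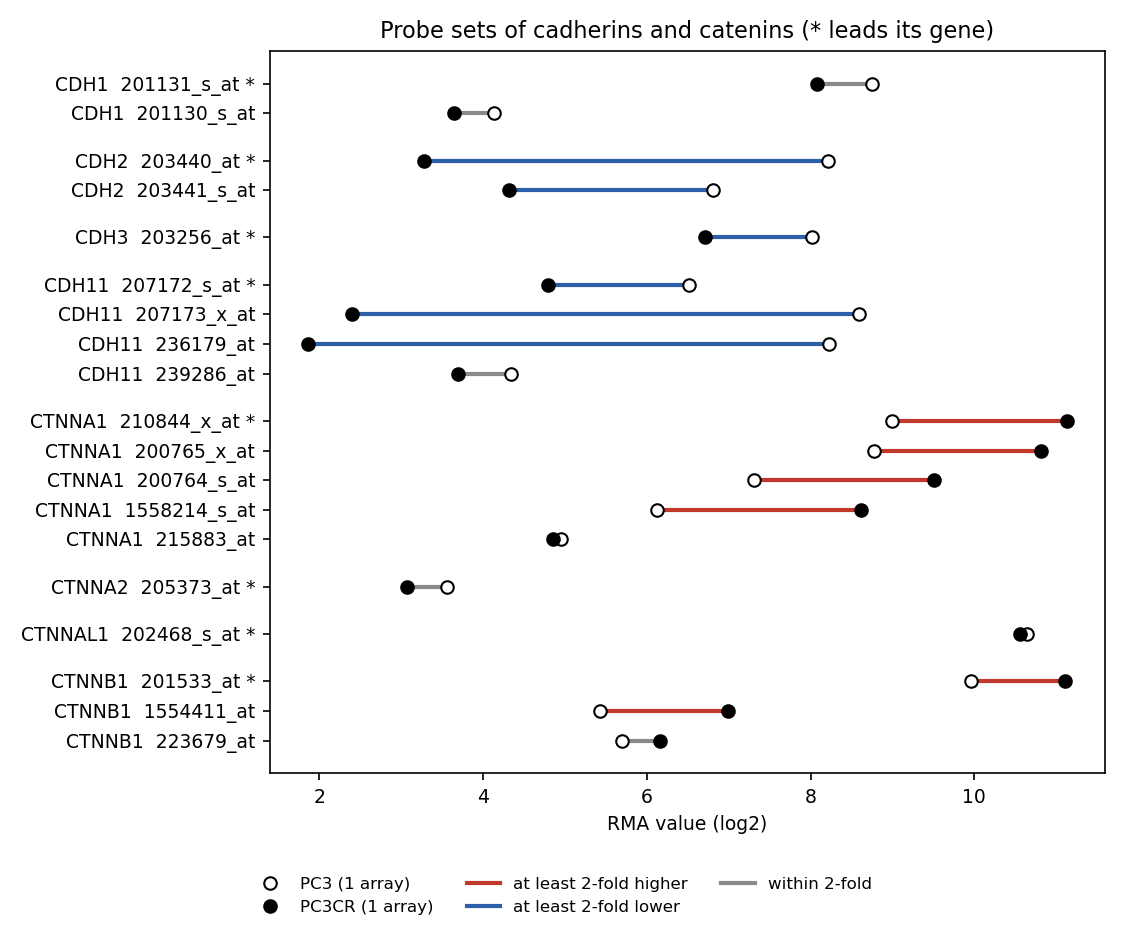
RMA values (log2, horizontal axis) of the 19 probe sets of 8 cadherin and catenin genes, 1 row per probe set, with PC3 as open and PC3CR as filled circles and 1 array each. Lines are blue where PC3CR is lower by 2-fold or more, red where it is higher by 2-fold or more and grey otherwise, and a star marks the probe set with the highest mean. Each filled circle of the 9 cadherin rows lies left of its open circle, and 6 rows of CTNNA1 and CTNNB1 are red.

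CDH2 encodes N-cadherin, the cadherin of neural and mesenchymal cells. It read 8.21 in PC3 but 3.28 in PC3CR (log2 difference -4.93, 30.4-fold). In PC3CR this probe set, 203440_at, lay below the lower quartile of genes (4.10), so that its difference is bounded by the lowest signals of the array. The second probe set of CDH2, 203441_s_at, read 6.80 in PC3 but 4.31 in PC3CR (difference -2.49). Both probe sets were thus high in PC3 and low in PC3CR, with sizes that differed, and the mean of the pair was -3.71.

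CDH11 encodes OB-cadherin, a type II cadherin of osteoblasts and fibroblasts that is also studied in bone metastasis of prostate cancer. Its 4 probe sets had the widest range among these genes. The leading one, 207172_s_at, read 6.51 in PC3 but 4.79 in PC3CR (log2 difference -1.73, 3.31-fold). Probe set 207173_x_at read 8.59 in PC3 but 2.40 in PC3CR (difference -6.19). Probe set 236179_at read 8.23 in PC3 but 1.86 in PC3CR (difference -6.37). The last, 239286_at, was at 4.34 and 3.70, a difference of -0.64. Thus 2 of the 4 probe sets went from a high value in PC3 to the floor of the array in PC3CR, where the floor limits the size of their differences, while the probe set that led by its mean over both arrays was the one with the highest value left in PC3CR. With its probe sets averaged CDH11 differed by -3.73.

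CDH3 encodes P-cadherin, the cadherin of basal epithelial cells of the prostate. Its only probe set read 8.02 in PC3 but 6.71 in PC3CR (log2 difference -1.31, 2.47-fold). CDH1 encodes E-cadherin, the main cadherin of epithelia. Its leading probe set, 201131_s_at, read 8.75 in PC3 but 8.08 in PC3CR (log2 difference -0.67, 1.59-fold), within the 2-fold rule. The second, 201130_s_at, was below the lower quartile on both arrays, at 4.14 in PC3 and 3.65 in PC3CR. By the leading probe sets E-cadherin thus differed least of the 4 cadherins, and the other 3 were past 2-fold.

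CTNNA1 encodes alpha-E-catenin, the link between the junction and actin. Its leading probe set, 210844_x_at, read 8.997 in PC3 but 11.13 in PC3CR (log2 difference 2.13, 4.39-fold). Probe set 200765_x_at read 8.77 in PC3 but 10.81 in PC3CR (difference 2.04). Probe set 200764_s_at read 7.31 in PC3 but 9.51 in PC3CR (difference 2.20). These 3 were close in size, and 1558214_s_at, at 6.13 in PC3 and 8.62 in PC3CR, had the largest difference of the 5 at 2.49. The last, 215883_at, read 4.95 in PC3 but 4.85 in PC3CR (difference -0.093). It is the only CTNNA1 probe set with neither the suffix _x_at nor _s_at, which Affymetrix gave to probe sets that may also bind other sequences or several transcripts, so the difference of CTNNA1 rests on probe sets of those classes. The pseudogene CTNNA1P1, added after the values were seen, read 2.86 in PC3 against 3.12 in PC3CR by its own probe set. As background, PC3 has been described as a line with a deletion in CTNNA1 that lacks alpha-catenin protein. On the PC3 array all 5 CTNNA1 probe sets read above the lower quartile of genes (4.22), 4 of them between 6.13 and 8.997 and 215883_at at 4.95. That quartile is not a limit of detection. The gene's DNA and protein were not analysed here.

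CTNNB1 encodes beta-catenin. Its leading probe set, 201533_at, read 9.95 in PC3 but 11.11 in PC3CR (log2 difference 1.15, 2.22-fold). Probe set 1554411_at read 5.43 in PC3 but 6.996 in PC3CR (difference 1.57). Probe set 223679_at was at 5.70 and 6.16, a difference of 0.46. All 3 probe sets were higher in PC3CR, 2 of them past 2-fold.

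The other measured catenin genes lay within 2-fold. CTNNA2 encodes alpha-N-catenin of neurons, and its probe set was below the lower quartile on both arrays, at 3.56 in PC3 and 3.07 in PC3CR. CTNNAL1 encodes alpha-catulin, a relative of alpha-catenin and vinculin that is not a core part of the junction. It read 10.64 in PC3 but 10.56 in PC3CR (difference -0.075), which was 0.0052 after quantile normalization.

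**Figure D2:**
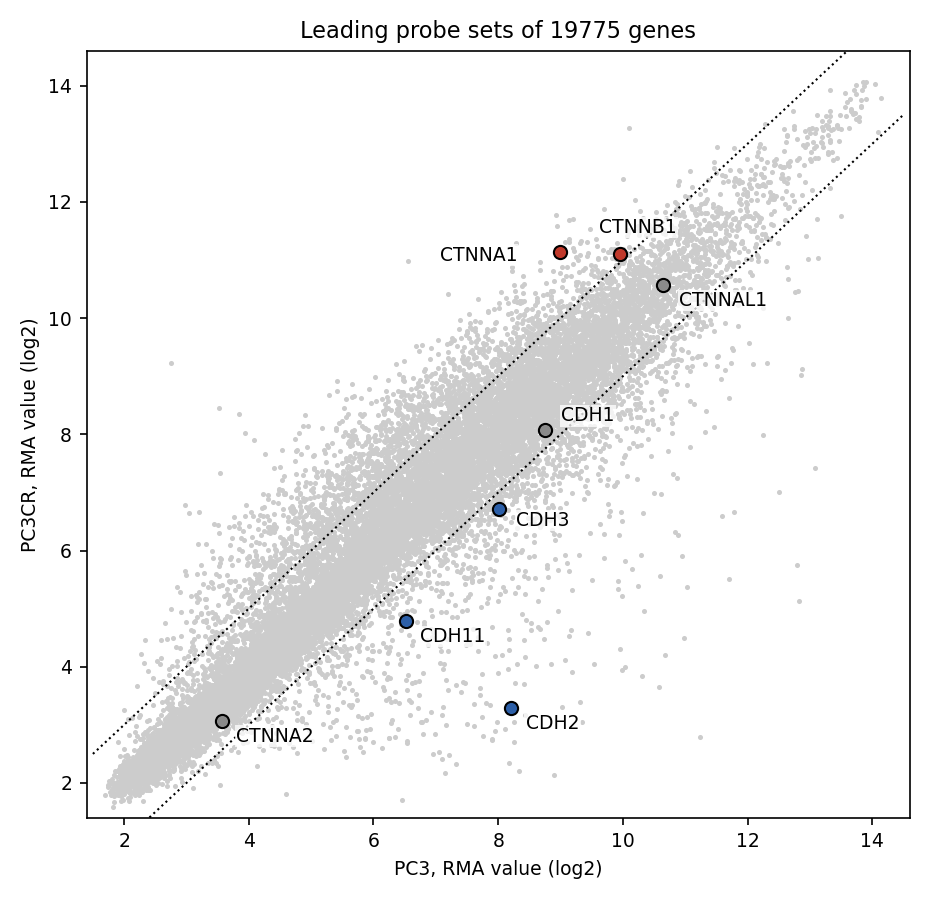
RMA values (log2) of the leading probe sets of 19775 genes in PC3 (horizontal) and PC3CR (vertical), each gene a grey point, with 8 cadherin and catenin genes enlarged. Of these, blue marks those lower in PC3CR by 2-fold or more, red those higher by as much, dark grey the others, and the dotted lines are the 2-fold limits. CDH2, CDH11 and CDH3 lie below the lower line, and CTNNA1 and CTNNB1 above the upper one.

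Promoters are shown for CTNNA1, CTNNB1 and CDH2, the catenin genes higher in PC3CR and the cadherin with the largest difference by its leading probe set. RefSeq windows of 300 bases on GRCh38.p14 matched 6 of the 10 genes (CDH2, CDH4, CTNNA1, CTNNA2, CTNNAL1 and CTNNB1). Each window runs 5′ to 3′ on the gene's strand across an annotated start. Capitals mark the GC box GGGCGG or its reverse CCGCCC, the core of SP1 sites, with overlapping matches each counted. CTNNA1 lies on the plus strand at chr5:138753175-138753474, CTNNB1 on the plus strand at chr3:41199255-41199554 and CDH2 on the minus strand at chr18:28177081-28177380.
CTNNA1: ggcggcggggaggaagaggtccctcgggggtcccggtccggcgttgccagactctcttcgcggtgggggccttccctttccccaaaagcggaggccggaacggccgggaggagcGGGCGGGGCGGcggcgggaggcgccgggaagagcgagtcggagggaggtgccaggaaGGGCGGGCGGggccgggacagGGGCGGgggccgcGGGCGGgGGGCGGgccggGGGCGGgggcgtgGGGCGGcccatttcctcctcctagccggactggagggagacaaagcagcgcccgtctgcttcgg
CTNNB1: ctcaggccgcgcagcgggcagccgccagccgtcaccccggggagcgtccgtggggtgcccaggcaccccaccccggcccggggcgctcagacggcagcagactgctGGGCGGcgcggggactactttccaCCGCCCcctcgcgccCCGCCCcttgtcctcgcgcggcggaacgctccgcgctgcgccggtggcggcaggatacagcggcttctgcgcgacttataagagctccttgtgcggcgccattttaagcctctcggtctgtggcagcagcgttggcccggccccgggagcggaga
CDH2: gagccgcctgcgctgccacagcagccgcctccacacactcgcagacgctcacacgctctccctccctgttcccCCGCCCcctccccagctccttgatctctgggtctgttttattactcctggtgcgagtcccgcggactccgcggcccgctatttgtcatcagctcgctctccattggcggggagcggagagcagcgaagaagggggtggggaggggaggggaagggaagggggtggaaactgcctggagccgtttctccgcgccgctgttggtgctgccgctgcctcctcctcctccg

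The CTNNA1 window held 9 GC boxes, the CTNNB1 window 3 and the CDH2 window 1. A GC box was found in 45.0% of all 35116 windows. The GC content was 77.7% for CTNNA1, 74.0% for CTNNB1 and 67.0% for CDH2, with a median of 58.7% over all windows. No match to CANNTG, the E-box that SNAIL, ZEB and TWIST proteins bind, was found in these 3 windows on either strand, and 68.7% of all windows held one. The narrower E-box CAGGTG, whose reverse is CACCTG, was in 20.6% of all windows. The TATA box TATAAA, or TTTATA on the other strand, was in none of the 3, and in 11.5% of all windows. The TCF and LEF motif CTTTGAT, or ATCAAAG, was also in none of the 3, and in 2.62% of all windows. Of the other RefSeq windows of these genes, the 3 of CTNNA1 held 0, 2 and 2 matches to CANNTG and the 1 of CDH2 held 1. The last 2 of these CTNNA1 windows overlap, and their 2 matches each are the same 2 sites in the shared stretch. In the same order the 3 of CTNNA1 held 4, 0 and 0 GC boxes, at a GC content of 74.7%, 42.3% and 44.7%. The 1 of CDH2 held 0 GC boxes, at 40.7%. The TATA box had 1 match in 1 of these CTNNA1 windows and 1 in the CDH2 window. The TCF and LEF motif had 1 match in the stretch shared by the 2 overlapping CTNNA1 windows, and 0 in the CDH2 window. These are matches of letters and give no binding.

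Genes beside each gene past 2-fold were read in RefSeq order of start positions, 5 measured genes on each side. CDH2 lies on chromosome 18, and no gene beside it was past 2-fold in the direction of CDH2. Its 10 neighbours differed by between -0.30 and 1.68, with a median of 0.17 and 6 of 10 above 0. DSC2, which encodes the desmosomal cadherin desmocollin 2, was past 2-fold in the other direction, at 6.06 in PC3 and 7.74 in PC3CR. CDH3 and CDH1 lie next to each other on chromosome 16. Of the 10 neighbours of CDH3, CDH1 among them, HAS3, a hyaluronan synthase gene, was past 2-fold, at 8.64 in PC3 and 6.996 in PC3CR, and with its probe sets averaged it differed by -0.75. The neighbours of CDH11, also on chromosome 16, differed by between -0.64 and 2.24, with BEAN1 past 2-fold, at 4.68 in PC3 and 6.92 in PC3CR.

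CTNNA1 on chromosome 5 had 2 neighbours past 2-fold in its own direction. EGR1, an immediate early transcription factor, read 6.42 in PC3 but 8.02 in PC3CR (difference 1.61). SIL1, a co-chaperone of the endoplasmic reticulum, read 6.47 in PC3 but 8.31 in PC3CR (difference 1.84). HSPA9 and LRRTM2, the nearest measured genes on either side of CTNNA1, differed by -0.28 and -0.097. The 10 neighbours had a median of 0.36, with 7 above 0. CTNNB1 on chromosome 3 had no neighbour past 2-fold, and its 10 neighbours differed by between -0.41 and 0.98, with a median of -0.11. Over the 50 neighbours together, 4 exceeded 2-fold upward in PC3CR and 1 downward, and over all genes 9.84% and 6.72% did.

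**Figure D3:**
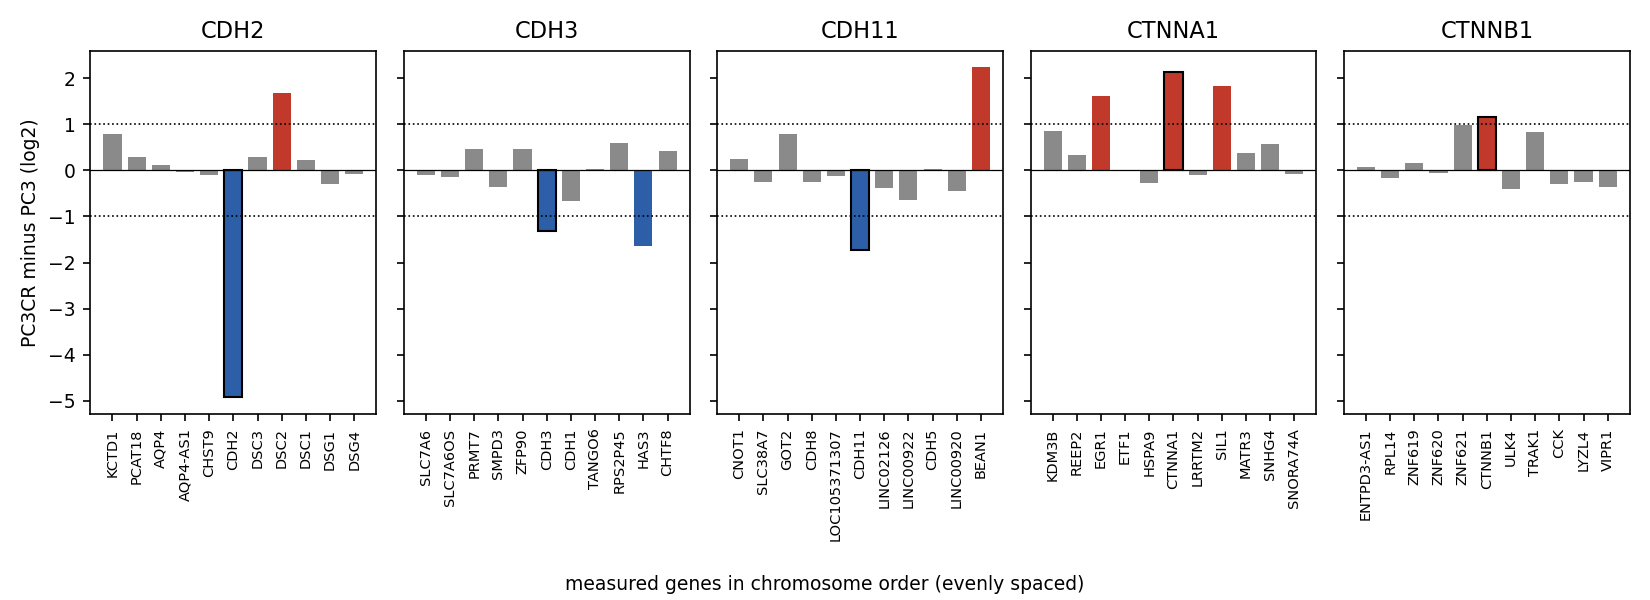
Differences between PC3CR and PC3 (log2, vertical axis) for CDH2, CDH3, CDH11, CTNNA1 and CTNNB1 (outlined bars) and 5 measured genes on each side in chromosome order, evenly spaced, 1 bar per gene by its leading probe set. Bars past the dotted 2-fold limits are red (higher in PC3CR) or blue (lower), and the rest are grey. The bar of CDH2 at -4.93 stands among neighbours between -0.30 and 1.68, most of them too low in PC3 to show a 2-fold fall. EGR1 and SIL1 are past 2-fold beside CTNNA1.

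Beside the counts of this list and the next ones stand the shares of all genes, 9.84% higher and 6.72% lower. The remaining cadherins listed stayed within 2-fold as deposited where they were measured, and CDH13 had no value here. Among 17 of them measured, none passed 2-fold in either direction (after median centring 1, CDH24, was higher by as much), and the median was -0.25. Of the 17, 9 read under the lower quartile in both lines, where a 2-fold fall could hardly show. CDH24, a type II cadherin that binds catenins, read 5.64 in PC3 but 6.60 in PC3CR (difference 0.96). CDH7, another type II cadherin, was at 4.69 and 3.95, a difference of -0.74. CDH5, the VE-cadherin of endothelium, was at 3.24 and 3.28.

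In the wider cadherin superfamily 4 of 24 genes exceeded 2-fold upward in PC3CR and 1 downward, around a median of -0.078. FAT4, a giant atypical cadherin of the Hippo and planar polarity pathways, read 4.24 in PC3 but 6.75 in PC3CR (difference 2.51). CELSR2, a seven-pass cadherin of planar polarity, read 4.83 in PC3 but 6.77 in PC3CR (difference 1.94). CELSR1 of the same family differed by 1.20, and by 0.19 with its 3 probe sets averaged. The fourth was FAT1, which read 6.45 in PC3 against 7.64 in PC3CR. PCDH9, a protocadherin, read 5.42 in PC3 but 3.55 in PC3CR (difference -1.88), or -0.70 with its 4 probe sets averaged.

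Relatives of the catenins were not higher in PC3CR as CTNNA1 and CTNNB1 were. Of 5 measured, 2 exceeded 2-fold downward and none upward, around a median of -0.19. JUP encodes gamma-catenin or plakoglobin, the closest relative of beta-catenin, which serves both adherens junctions and desmosomes. It read 7.80 in PC3 but 6.65 in PC3CR (difference -1.16). CTNNA3, alpha-T-catenin of heart muscle, read 5.30 in PC3 but 2.97 in PC3CR (difference -2.33), and its 4 probe sets differed by between -2.33 and -0.47, with a mean of -1.28. PKP4, a p120 relative, differed by 0.53.

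Of 19 actin linkers and nectins at the junction, 1 exceeded 2-fold upward and 1 downward, around a median of 0. VCL encodes vinculin, which binds alpha-catenin under tension, and it read 11.25 in PC3 against 10.29 in PC3CR. That difference was -0.96, while the other VCL probe set differed by 0.30. ZYX, the actin regulator zyxin, read 7.94 in PC3 but 6.63 in PC3CR (difference -1.31). AFDN, the nectin partner afadin, read 7.66 in PC3 but 9.70 in PC3CR (difference 2.04). Its 7 probe sets differed by between -0.55 and 2.04, and their mean was 0.35.

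Beta-catenin is broken down by a complex of APC, AXIN and kinases and acts through TCF and LEF factors. Of 18 genes of this complex and of its nuclear partners, 2 exceeded 2-fold upward and none downward, around a median of -0.085. APC read 5.92 in PC3 but 7.92 in PC3CR (difference 2.005), or 0.88 with its 5 probe sets averaged. PYGO1, a nuclear cofactor of beta-catenin, read 3.89 in PC3 but 5.26 in PC3CR (difference 1.37), or 0.60 with its 3 probe sets averaged. AXIN2, a scaffold of the complex and itself a common Wnt target, was at 4.94 and 4.87. LEF1 was at 4.43 and 4.29, and TCF7L2, the TCF factor best known in epithelia, was at 8.89 and 9.34, a difference of 0.45. These 3 were within 2-fold at each of their probe sets.

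Among 20 genes of cadherin turnover and junction signalling, 5 exceeded 2-fold upward and none downward, around a median of 0.24. ADAM10, the protease that sheds E-cadherin and N-cadherin, read 10.00 in PC3 but 11.20 in PC3CR (difference 1.20). IQGAP1, a scaffold that can displace alpha-catenin from beta-catenin, read 9.24 in PC3 but 10.61 in PC3CR (difference 1.37). ARF6, a GTPase of cadherin endocytosis, differed by 1.19, and PTPN14, a junctional phosphatase, by 1.12. The fifth was PTPRF, a receptor phosphatase, at 1.002. With their probe sets averaged ARF6, PTPN14 and PTPRF differed by 0.80, 0.56 and 0.84.

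Of 16 repressors and activators of CDH1, 1 exceeded 2-fold upward and 4 downward, around a median of -0.31. Both kinds were among the lower genes. TWIST1, a repressor of E-cadherin and activator of N-cadherin, read 7.502 in PC3 but 3.02 in PC3CR (difference -4.48). The epithelial factors ELF3, GRHL2 and OVOL1 differed by -2.22, -1.89 and -1.72, and with their probe sets averaged ELF3 and OVOL1 differed by -1.21 and -1.20. TWIST2 was the higher one, at 6.06 in PC3 against 7.68 in PC3CR, and differed by 1.62, or 0.91 with its 2 probe sets averaged. SNAI2 differed by -0.96, and by -1.09 after loess centring or quantile normalization, and ZEB1 was at 8.02 and 8.42.

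**Figure D4:**
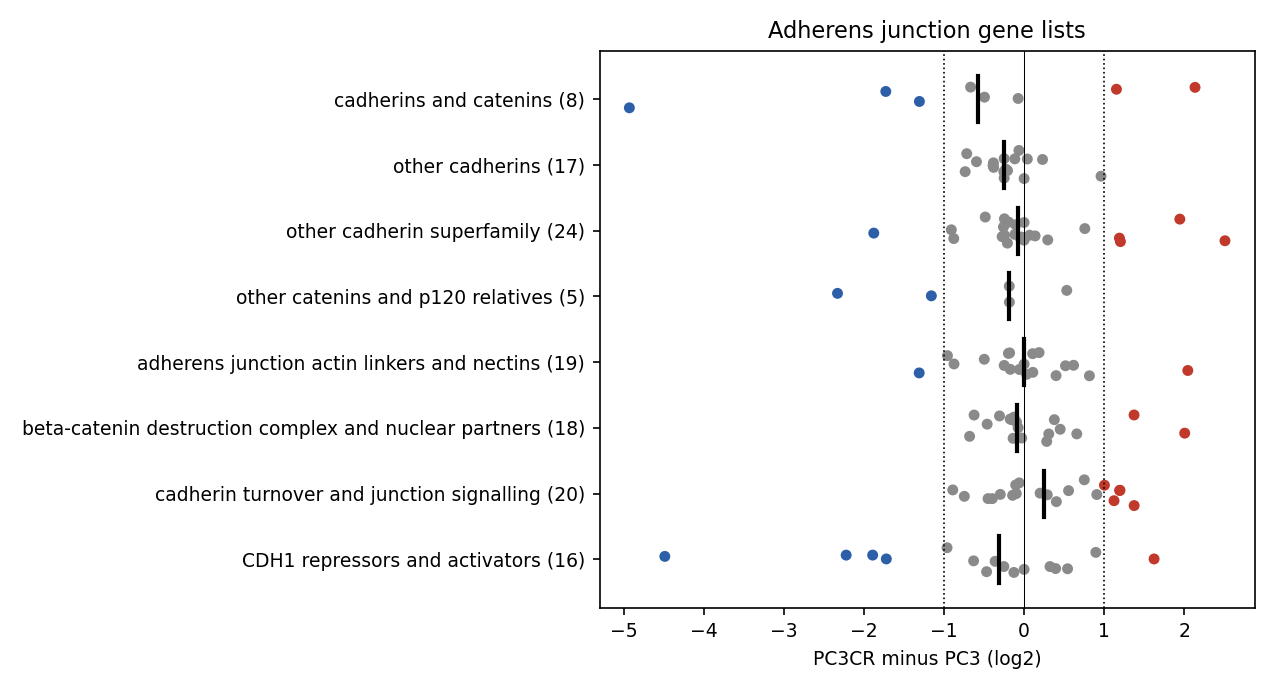
The horizontal axis gives PC3CR minus PC3 (log2) for the 8 cadherin and catenin genes measured and for 7 lists of junction genes, each gene a point and the count of genes beside each name. Points past the dotted 2-fold limits are red (higher in PC3CR) or blue (lower), the rest are grey, and black bars are medians. The points of the 17 other cadherins, as deposited, lie between the dotted lines, whereas CDH2 and TWIST1 lie furthest to the left.

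Markers of the labelled cells were read beside these results. Of 8 epithelial markers, 5 exceeded 2-fold downward in PC3CR and none upward, and their summed level (log2 of the sum of linear values) was 13.65 in PC3 and 13.08 in PC3CR. The simple epithelial keratins KRT8 and KRT18 were at 9.72 and 11.69 in PC3 and at 9.79 and 12.36 in PC3CR, whereas the simple epithelial keratins KRT19 and KRT7 were lower in PC3CR. KRT19 read 11.32 in PC3 but 8.03 in PC3CR (difference -3.28), or -2.13 with its probe sets averaged, and KRT7 differed by -1.86, or -1.05 with its 4 probe sets averaged. EPCAM differed by -2.49, the claudin gene CLDN7 by -2.07 and CLDN4 by -4.97, or -2.58 with its 2 probe sets averaged. Of the 4 luminal prostate markers measured, HOXB13 exceeded 2-fold downward, from 5.999 in PC3 to 4.27 in PC3CR, and the summed level was 8.72 and 8.51. Most of that sum came from 1 of the 3 probe sets of KLK3, at 8.04 in PC3 and 8.08 in PC3CR, while the other two read 4.21 and 5.10 in PC3 and 4.25 and 4.58 in PC3CR. Of 6 fibroblast markers, COL1A1 exceeded 2-fold downward (by -2.12, or -0.79 with its 5 probe sets averaged) and 5 did not, with a summed level of 9.14 in PC3 and 7.83 in PC3CR. Most of the PC3 sum came from the leading COL1A1 probe set, at 8.69 in PC3 and 6.56 in PC3CR. The 5 others went both ways, by between -0.61 and 0.90. None of 4 leukocyte or 5 endothelial markers passed 2-fold (furthest from 0 were CD14 at 0.46, CD3E at -0.28, PECAM1 at -0.59 and TEK at 0.22), and their summed levels were 6.73 and 7.13 in PC3 and 6.69 and 6.82 in PC3CR. The values never reach 0 on this scale, and 2 fibroblast, 1 leukocyte and 3 endothelial markers were below the lower quartile on both arrays. The part of these markers in the differences of cadherins and catenins was not tested.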

How the data were processed

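Gene expression was measured on 1 array of PC3 and 1 array of PC3CR. Log2 values, 1 for each probe set after RMA, were deposited by the authors, and their processing notes name Affymetrix Expression Console 1.4 and Transcriptome Analysis Console 3.1. RMA gives the probe signals of both arrays the same distribution before they are combined into probe sets. A difference in total RNA per cell can thus be lost. The identifiers belong to the U133 Plus 2.0 array, although the Human Gene 1.0 ST is the one in the methods. The scanner files were not used here.

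Of 54613 probe sets, 41091 had 1 gene symbol in the platform annotation, 1801 had several and 11721 were unnamed here. Symbols were updated through Entrez IDs to RefSeq for 41037. The probe set with the highest mean of both arrays led each of 19775 genes. PC3CR minus PC3 was computed, and genes were counted past 2-fold with no floor on signal. The RefSeq table gave names, chromosomes and gene order.

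The genes and lists were chosen with earlier results of these data known. In each list up to 4 genes furthest from 0 past 2-fold, or otherwise the 2 furthest from 0, were named, besides VCL, JUP, AFDN, LEF1, TCF7L2, AXIN2, SNAI2, ZEB1 and GRHL2. CDH5, PKP4, CTNNA1P1, FAT1, PTPRF, TWIST2, HSPA9, LRRTM2, KCTD1 and the markers KRT7, KRT8, KRT18 and KLK3 were named after their values were seen. Some listed genes were not analysed here. The alternatives were thresholds of 1.5-fold and 3-fold, a floor on signal, the mean or median of a gene's probe sets, leaving out probe sets with the suffixes _x_at and _s_at, median centring, loess centring (span 0.4) and quantile normalization. The counting and scaling were tested on simulated data. The scripts ran on Python 3.11.15 with pandas 2.3.3, numpy 2.4.6, matplotlib 3.10.9 and statsmodels 0.14.6.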

Additional observations from a re-analysis of the deposited data

How the results depend on the processing

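With 1 array per cell line no array could be left out, and no paired analysis was possible because each line has 1 array. A difference was taken as moved when it changed by over 0.1 on the log2 scale, and a count when it changed by over 1.5 times. As the mean of probe sets CDH11 differed by -3.73, CDH2 by -3.71 and CTNNA1 by 1.75, and as the median CDH11 differed by -3.96 and CDH2 by -3.71. Without probe sets with the suffixes _x_at and _s_at CDH11 differed by -6.37, and CTNNA1, left with 1 probe set, reversed to -0.093. After loess centring CDH3 differed by -1.43. The number of cadherins and catenins at least 2-fold higher was 1 in place of 2 at 3-fold and without those suffixes, where 2 of their probe sets were higher and 3 lower in place of 6 and 6. The number of lower cadherins and catenins was 4 at 1.5-fold and 2 at 3-fold in place of 3, which the rule does not count as moved. It stayed at 3 under the other alternatives. Over the 119 genes of the 7 lists, 13 were higher and 8 lower, and over all genes 9.84% and 6.72% were. Among the 17 other cadherins, none was past 2-fold, and 1, CDH24, was higher after median centring, while at 1.5-fold 1 was higher and 3 lower. At 1.5-fold there were 21 and 21 over all 7 lists, and at 3-fold 5 were higher. As the mean of probe sets 5 were higher, and as the median 6. The lower genes numbered 5 when the brighter array had to lie at or above the median, and 4 without the suffixes. Of the neighbours, 10 were higher and 3 lower at 1.5-fold, and 0 lower with the mean or median of probe sets. For the counts at 1.5-fold, at 3-fold and under the other alternatives, the shares of all genes were not counted. The shares of 9.84% and 6.72% are for 2-fold as deposited and are no background for them. No count of depth applies to arrays, and values near the floor limit the size of the differences of CDH2 and CDH11. The same limit holds for TWIST1, CTNNA3, PCDH9 and GRHL2, which read below the lower quartile of genes in PC3CR.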
